A study of Rattus norvegicus with 6 samples.

Results

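The 10 apolipoprotein genes Apoa1, Apoa2, Apoa4, Apoa5, Apob, Apoc1, Apoc2, Apoc3, Apoe and Apom were followed in rat liver on 15 microarray probes. Members were the probes whose RefSeq accession belongs to one of these genes, which gave 10 of 15284 named genes and 15 of 61657 probes other than controls. Apob had 5 probes and Apoc3 had 2, and the other 8 genes had 1 probe each. Probes of 1 gene share their target and are not replicates of a condition.

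The phenolphthalein group was 3 male Sprague-Dawley rats of the stock Crl:CD(SD) given 1000 mg per kg per day of phenolphthalein, a pH indicator dye formerly sold as a laxative. The corn oil group was 3 male rats of the same stock given corn oil, the vehicle in such studies. All were bought at 5 weeks of age and kept on a basal diet, and all were outbred animals with no engineered allele named in the labels. How long the animals were dosed is not settled, as the design text gives 28 days but the treatment protocol 9 weeks. Total liver RNA of each animal was hybridised to 1 array with 1 dye, Cy3.

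Apolipoproteins are the protein coats of the particles that carry cholesterol and triglycerides in blood, and the liver makes most of them. Apob is the large structural protein of the triglyceride-rich and low-density particles, Apoa1 and Apoa2 are the main proteins of high-density particles, and the smaller C apolipoproteins and Apoe move between particles and control how enzymes and receptors act on them. In rodents the liver and the small intestine both express Apoa4 and Apob.

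On each array 62.1% to 65.1% of probes were well above background, and no spot was saturated. The 75th percentile of the processed intensity was 551 to 578 on phenolphthalein arrays and 595 to 636 on corn oil arrays, and each array was scaled to its own. All 7 tested hepatocyte markers were well above background on every array, their summed linear signal was 5624 to 5837 times the 75th percentile in phenolphthalein livers and 5420 to 5756 times in corn oil livers, and the enterocyte markers summed to 1.37 to 1.58 with phenolphthalein and 1.75 to 1.81 with corn oil. Markers of Kupffer cells, the resident macrophages of liver, had lower means with phenolphthalein in 8 of 8 genes, 0 of which passed limma's adjusted test, against 0.0612% of all genes tested, and 7 of which had an unadjusted p under 0.05, against 8.11% of all genes tested in that direction. Their summed linear signal was 69.2 to 92.7 with phenolphthalein and 100 to 137 with corn oil. Lymphocyte and leukocyte markers also had lower means in 4 of 4 tested genes, 0 of which passed and 3 of which had an unadjusted p under 0.05, and they summed to 1.90 to 2.17 with phenolphthalein and 2.65 to 3.09 with corn oil. In whole liver, fewer cells of a type and less RNA per cell cannot be told apart. Each group lay on a slide of its own with a scan of its own, and these cannot be told apart from the treatment.

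The comparison asked whether apolipoprotein transcripts differed between livers of rats given phenolphthalein and livers of rats given corn oil. None of the 15 probes passed the test in either direction (limma, adjusted p under 0.05 by Benjamini-Hochberg over 39411 probes), and the background was 0.0482% of all probes tested called. The lowest adjusted p of a member in limma was 0.269, and 1 of the 15, a probe of Apob, had an unadjusted p under 0.05, against 13.2% of all probes tested. The same Apob probe was the 1 member whose groups did not overlap, against 21.1% of all probes tested. Apoa4 overlapped only through a failed spot on phenolphthalein replicate 1, described below. The median log2 fold change was 0.08 over the 15 probes, against 0.02 over all probes tested. The mean was higher in phenolphthalein livers for 13 of 15 probes, against 53.4% of all probes tested, but for 8 of 15 after quantile normalization and for 7 of 15 without corn oil replicate 2. These tallies count Apoa4 as lower through its failed spot. With defective array columns masked, the mean was higher for 14 of 15 probes, against 53.7% of all probes tested. The median log2 fold change of the members was then 0.09.

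The intervals below are given for 1 probe at a time. They reflect the spread between arrays within a group, which limma draws towards a value estimated over all probes tested. They do not cover an offset between the slides, on which the groups lay apart. For 14 of 15 probes the 95% confidence interval of the fold change lay within 2-fold in both directions, and for 12 of 15 within 1.5-fold. Over these 14 probes the intervals of the log2 fold change ran from -0.35 to 0.84. The exception was Apoa4, whose probe has a failed spot on 1 array and is described below by its other 5 arrays. In this text a log2 signal is the log2 of the scanner software's processed signal minus the array's 75th percentile, so levels can be compared between arrays for 1 probe and not between probes.

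**Figure D1:**
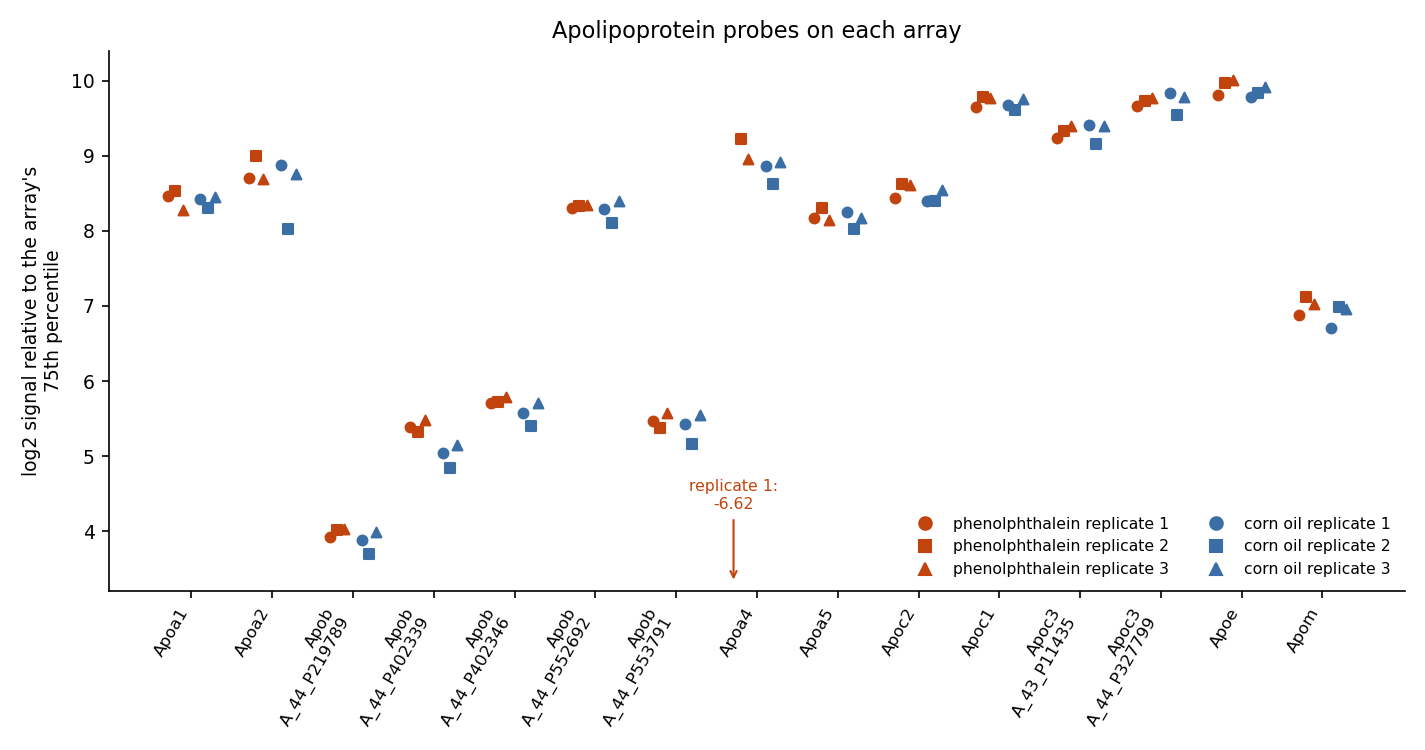
The vertical axis gives the log2 signal relative to the array's 75th percentile, and each column of points is 1 of the 15 probes, with the 3 phenolphthalein arrays left of the 3 corn oil arrays. Symbols stand for replicate numbers. The groups overlap for every probe but Apob A_44_P402339, and for Apoa4 only through a failed spot. That spot, of phenolphthalein replicate 1, lies off the axis at -6.62. Corn oil replicate 2 is the lowest corn oil array for 13 of 15 probes.

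Apoa1, the main protein of high-density lipoprotein and the activator of the cholesterol-esterifying enzyme LCAT, had log2 signals of 8.47, 8.53 and 8.28 in phenolphthalein livers and 8.43, 8.30 and 8.46 in corn oil livers. The groups overlapped, with the lowest value of all 6 in phenolphthalein replicate 3. The log2 fold change was 0.03 ± 0.10 (SE), with a limma adjusted p of 0.907, and quantile normalization turned it to -0.06. Its 95% interval spans 0.862 to 1.22 times the corn oil level.

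Apoa2, the second protein of high-density particles, varied most among the genes with 6 usable spots. Its log2 signal was 8.70, 9.002 and 8.69 in phenolphthalein livers and 8.88, 8.03 and 8.76 in corn oil livers. Corn oil replicate 2 stood 0.72 below the next corn oil array, and the other 5 arrays lay between 8.69 and 9.002. The log2 fold change of 0.24 ± 0.24 (SE) had a limma adjusted p of 0.697 and became -0.02 without corn oil replicate 2.

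Apom, a lipocalin of high-density particles that carries sphingosine-1-phosphate, had log2 signals of 6.87, 7.12 and 7.02 in phenolphthalein livers and 6.71, 6.99 and 6.96 in corn oil livers. The groups overlapped, and replicate 1 was the lowest in both. Its log2 fold change was 0.12 ± 0.12 (SE), with a limma adjusted p of 0.683.

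Apob, which forms the backbone of very low density lipoprotein, was read by 5 probes that did not give the same difference. Probe A_44_P402339 had log2 signals of 5.39, 5.33 and 5.48 in phenolphthalein livers and 5.04, 4.84 and 5.15 in corn oil livers. All 3 phenolphthalein arrays lay above all 3 corn oil arrays, and the log2 fold change was 0.39 ± 0.11 (SE, limma adjusted p = 0.269). This is a 1.31-fold difference with a 95% interval of 1.09 to 1.57.

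The other 4 Apob probes had log2 fold changes of 0.06 to 0.18, and the groups overlapped for each. Probe A_44_P402346 had 5.71, 5.72 and 5.79 in phenolphthalein livers and 5.58, 5.40 and 5.71 in corn oil livers, a log2 fold change of 0.18 ± 0.10 (SE, limma adjusted p = 0.506). Probe A_44_P552692, with the strongest raw signal of the 5, had 8.31, 8.33 and 8.34 in phenolphthalein livers and 8.29, 8.10 and 8.40 in corn oil livers, a log2 fold change of 0.06 ± 0.10 (SE, limma adjusted p = 0.813). Among corn oil arrays, each of the 5 was lowest in replicate 2 and highest in replicate 3.

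Set against the mean of the other 4 Apob probes on the same array, A_44_P402339 was at -0.46, -0.53 and -0.46 log2 units in phenolphthalein livers and at -0.75, -0.75 and -0.76 in corn oil livers. The SD of this value was 0.04 with phenolphthalein and 0.01 with corn oil, and the mean was 0.27 log2 units higher with phenolphthalein. The spot lies in column 162 of 164, at the edge of the array, where the scanner software corrects for uneven signal across the slide. The files used here give the median spot signal and not the factor itself, so the correction was estimated as the log2 of processed over background-subtracted median signal, which also takes in any gap between the software's own spot signal and the median. This estimate was 0.39, 0.35 and 0.38 at this spot on the phenolphthalein arrays and 0.15, 0.14 and 0.14 on the corn oil arrays.

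The estimated correction differed by 0.23 log2 units between the groups at this spot, and by 0.22 at the median of 40 neighbouring spots. The next largest such difference among the other members, leaving out Apoa4, was 0.12 and also belonged to an Apob probe, A_44_P553791. On the background-subtracted median signal, which has no spatial correction, A_44_P402339 had 5.01, 4.995 and 5.11 in phenolphthalein livers and 4.90, 4.72 and 5.03 in corn oil livers, and the groups overlapped. Its log2 fold change was then 0.16 ± 0.11 (SE, limma adjusted p = 0.542) and its difference to the other 4 probes 0.06.

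On that uncorrected signal a different Apob probe, A_44_P219789, became the 1 member whose groups did not overlap. Apoa4 again overlapped only through its failed spot. The processed log2 signals of A_44_P219789 were 3.93, 4.02 and 4.03 in phenolphthalein livers and 3.89, 3.70 and 3.99 in corn oil livers. Its uncorrected ones were 3.92, 3.98 and 3.96 in phenolphthalein livers and 3.69, 3.59 and 3.87 in corn oil livers. The log2 fold change was 0.13 ± 0.10 (SE) as processed and 0.23 ± 0.10 (SE) uncorrected, with limma adjusted p-values of 0.609 and 0.363. Probe A_44_P553791 had 5.47, 5.37 and 5.58 in phenolphthalein livers and 5.42, 5.17 and 5.55 in corn oil livers, with a log2 fold change of 0.09 ± 0.13 (SE) as processed and -0.02 uncorrected. No Apob probe kept separate groups on both scales.

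**Figure D2:**
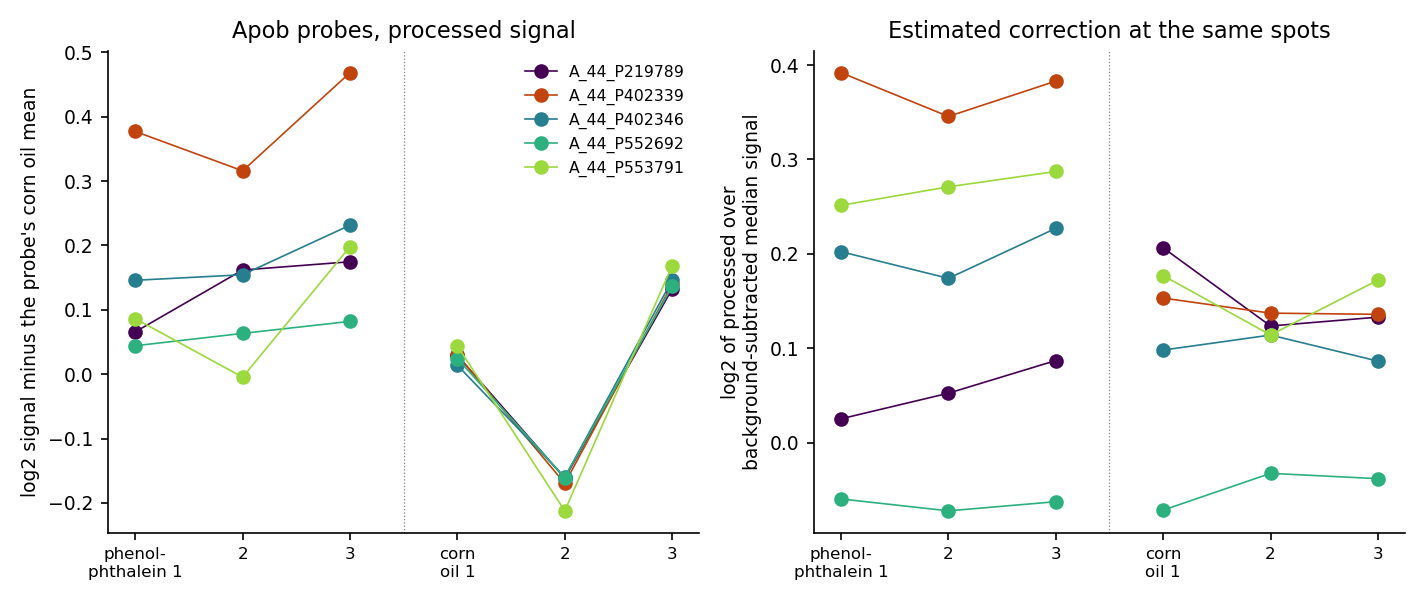
Left, the log2 signal of each of the 5 Apob probes minus that probe's corn oil mean, on the 3 phenolphthalein and then the 3 corn oil arrays. Right, the correction at the same spots, estimated as the log2 of processed over background-subtracted median signal, which for A_44_P402339 was 0.35 to 0.39 on phenolphthalein arrays and 0.14 to 0.15 on corn oil arrays.

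Apoa4, a lipid-binding protein of triglyceride-rich and high-density particles, sits between Apoc3 and Apoa5 in a cluster that Apoa1 opens. Its probe had log2 signals of -6.62, 9.22 and 8.95 in phenolphthalein livers and 8.87, 8.63 and 8.92 in corn oil livers. The first value is a failed spot and not a level of the transcript. Its raw intensity was 36 over a local background of 31, and it carried no outlier mark. The processed log2 signal of the spot differed by -15.5 from the mean of the other 5 arrays.

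The spot lies in row 224 and column 58 of phenolphthalein replicate 1. In that column 21 of 51 bright spots were more than 2 log2 units below the other 5 arrays. They were 21 of 23 in even rows and 0 of 28 in odd rows. With the spot left out, 2 phenolphthalein arrays stood against 3 corn oil arrays, and the log2 fold change was 0.28 ± 0.15 (SE, limma adjusted p = 0.470), with a 95% interval from -0.09 to 0.66. Both remaining phenolphthalein values lay above the 3 corn oil values. With the spot kept, the log2 fold change was -4.95 ± 4.28 (SE, limma adjusted p = 0.648), so this 1 spot set the sign.

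**Figure D3:**
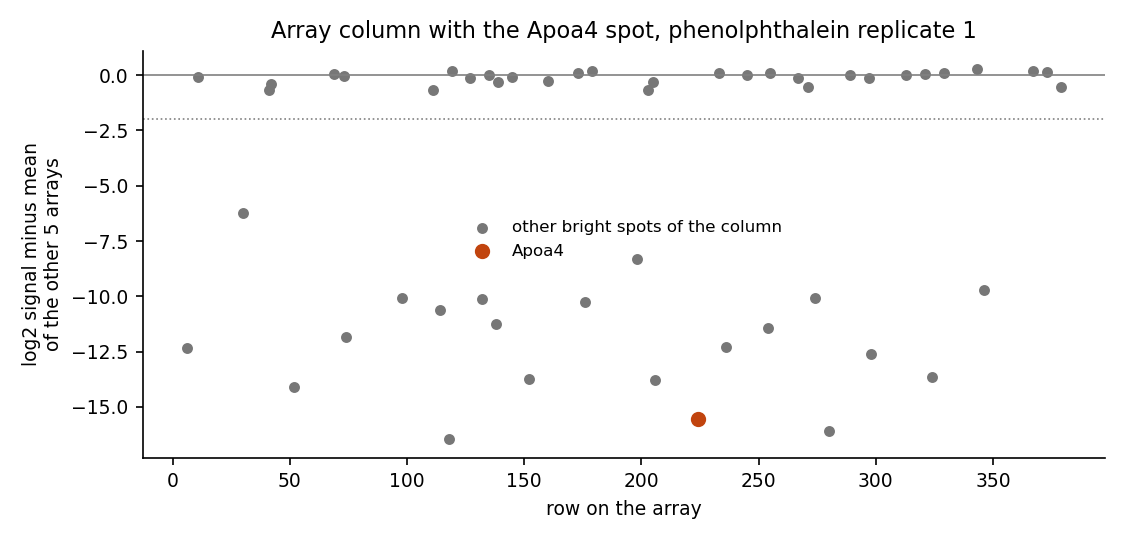
Each point is a bright spot (mean log2 signal over 2 on the other 5 arrays) in column 58 of phenolphthalein replicate 1, by its row, with its log2 signal minus the mean of the other 5 arrays on the vertical axis. The dotted line marks 2 log2 units below that mean, 21 of 51 spots lie under it, and Apoa4 is at -15.5.

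Apoa5, the liver's activator of lipoprotein lipase and the next gene after Apoa4, had log2 signals of 8.17, 8.30 and 8.15 in phenolphthalein livers and 8.25, 8.03 and 8.17 in corn oil livers. The groups overlapped, and corn oil replicate 2 was the lowest of the 6. Apoa5 had a log2 fold change of 0.06 ± 0.10 (SE, limma adjusted p = 0.819), and -0.03 after quantile normalization.

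Apoc3, the inhibitor of lipoprotein lipase in the same cluster, had 2 probes. Probe A_44_P327799 had 9.67, 9.74 and 9.77 in phenolphthalein livers and 9.84, 9.55 and 9.78 in corn oil livers. Probe A_43_P11435 had 9.23, 9.34 and 9.40 in phenolphthalein livers and 9.41, 9.16 and 9.40 in corn oil livers. Both had a log2 fold change of 0.00 to 2 decimals, with an SE of 0.10 for both, and the 2 probes gave the same order of arrays within each group. On both, the highest and the lowest of the 6 values were corn oil arrays.

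Apoc2, the cofactor that lipoprotein lipase needs, had log2 signals of 8.44, 8.63 and 8.61 in phenolphthalein livers and 8.40, 8.40 and 8.55 in corn oil livers. The groups overlapped, since corn oil replicate 3 lay above phenolphthalein replicate 1. Its log2 fold change was 0.11 ± 0.10 (SE, limma adjusted p = 0.650), and it stayed above 0 in all 17 alternative fits. The same held for Apoe, Apom and the Apob probes A_44_P219789, A_44_P402339 and A_44_P402346.

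Apoc1, which inhibits the uptake of remnant particles and lies next to Apoe, had 9.65, 9.78 and 9.77 in phenolphthalein livers and 9.68, 9.61 and 9.76 in corn oil livers. The values of both groups fell in a range of 0.17, the narrowest of the 15 probes. Apoc1 had a log2 fold change of 0.05 ± 0.09 (SE, limma adjusted p = 0.839), and -0.03 after quantile normalization.

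Apoe, the ligand by which remnants bind their receptors and a protein that macrophages also make, had log2 signals of 9.81, 9.98 and 10.004 in phenolphthalein livers and 9.79, 9.84 and 9.92 in corn oil livers. The groups overlapped. Apoe had a log2 fold change of 0.08 ± 0.09 (SE, limma adjusted p = 0.727), beside the lower means of all 8 Kupffer cell markers, whose part in the Apoe value was not tested.

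The brightest of these spots used much of the scanner's range. Apoe reached 76.0% of the saturation value, the Apoc3 probes 69.6% and 57.1%, Apoc1 60.7% and Apoa4 49.8%. No member spot was marked as saturated.

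**Figure D4:**
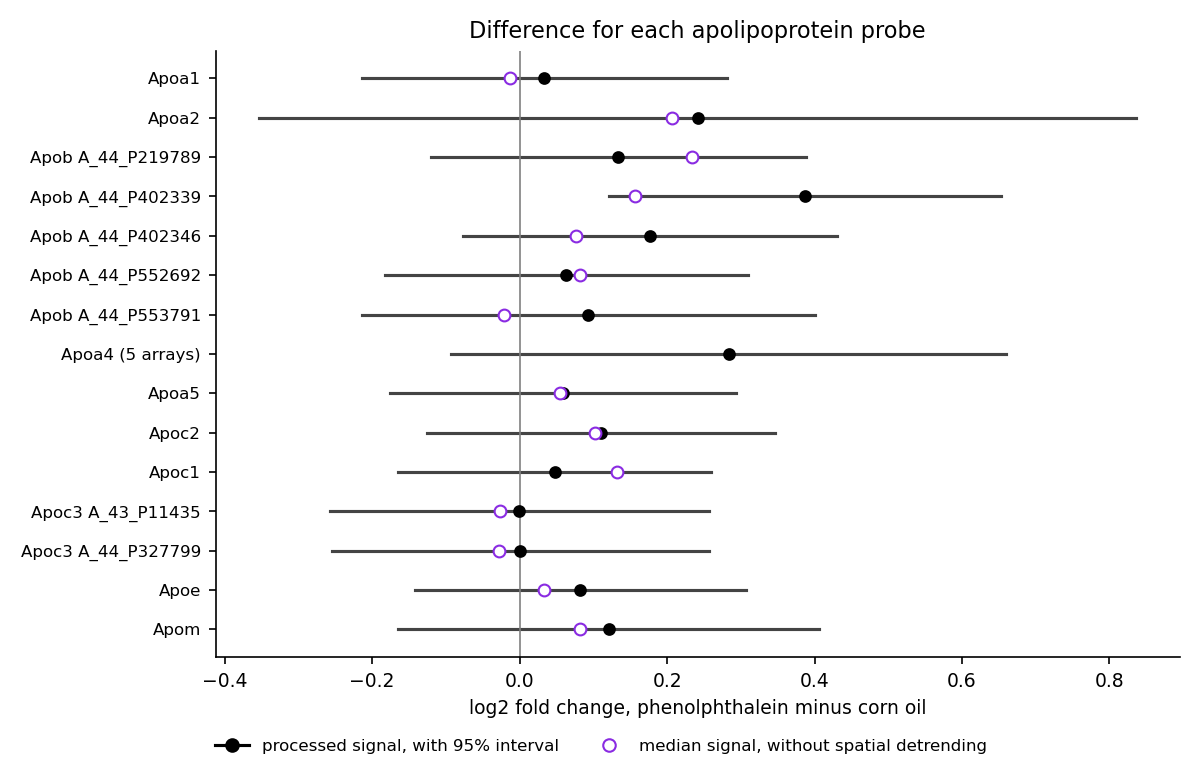
The horizontal axis gives the log2 fold change, phenolphthalein minus corn oil, for each of the 15 probes. Filled points are processed signals with their 95% interval, and open points the background-subtracted median signal, which has no spatial correction. Apoa4 is drawn from 5 arrays with no open point, and the interval of 1 probe, Apob A_44_P402339, leaves out 0.

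Most of the family shared 1 low corn oil array. Corn oil replicate 2 was the lowest corn oil array for 13 of 15 probes and 8 of 10 genes, the exceptions being Apoe and Apom, though for Apoc2 replicates 1 and 2 were equal to 2 decimals. It was the lowest for 31.3% of all probes tested, and for 29.0% of those with a mean log2 signal over 2. The median deviation from a probe's mean over the 6 arrays was -0.18 log2 units for the 15 member probes on that array, -0.25 for the 5 Apob probes, -0.05 for the 7 hepatocyte markers and 0.00 for all probes tested. On the same array it was also -0.25 for 3 bile duct markers. The other marker lists ran from 0.00 (endothelial cell) to 0.39 (Kupffer cell) there. Without that animal, and with the failed Apoa4 spot kept, the median log2 fold change of the members was 0.00. The means were then higher with phenolphthalein for 7 of 15 probes. Leaving out a probe's lowest corn oil array can only lower its fold change, so a fall in this tally was fixed in advance. With all 6 arrays kept, quantile normalization gave 8 of 15.

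Upstream sequence is shown for members on both sides of this split. Apoa4 and Apoa5 were lowest in corn oil replicate 2 among corn oil arrays, and Apoe and Apom in replicate 1. The 250 bases before the annotated start come from RefSeq's table for GRCr8, which held windows for 6 of the 10 genes. They run 5′ to 3′ on the gene's strand, and capitals mark matches on either strand to TATAAA (the TATA box), to the CCAAT box, to AGGTCA (the core letters of many nuclear receptor sites) or to CAAAGTCCA (a site of the liver factor HNF4).
Apoa4, chr8:55435529-55435778, plus strand: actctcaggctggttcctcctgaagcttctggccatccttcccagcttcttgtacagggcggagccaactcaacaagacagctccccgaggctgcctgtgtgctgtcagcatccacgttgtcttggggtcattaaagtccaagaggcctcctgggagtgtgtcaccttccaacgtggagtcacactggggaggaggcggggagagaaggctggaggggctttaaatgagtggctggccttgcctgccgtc
Apoa5, chr8:55457621-55457870, plus strand: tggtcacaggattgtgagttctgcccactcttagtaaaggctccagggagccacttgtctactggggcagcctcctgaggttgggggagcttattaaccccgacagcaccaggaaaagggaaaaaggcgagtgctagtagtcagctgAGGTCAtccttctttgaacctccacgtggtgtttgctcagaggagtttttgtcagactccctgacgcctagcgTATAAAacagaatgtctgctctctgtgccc
Apoe, chr1:88485817-88486066, minus strand: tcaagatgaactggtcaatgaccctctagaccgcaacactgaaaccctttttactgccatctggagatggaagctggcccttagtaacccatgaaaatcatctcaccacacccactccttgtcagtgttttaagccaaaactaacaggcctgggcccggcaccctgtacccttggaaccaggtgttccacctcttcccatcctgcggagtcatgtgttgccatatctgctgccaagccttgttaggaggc
Apom, chr20:3695368-3695617, plus strand: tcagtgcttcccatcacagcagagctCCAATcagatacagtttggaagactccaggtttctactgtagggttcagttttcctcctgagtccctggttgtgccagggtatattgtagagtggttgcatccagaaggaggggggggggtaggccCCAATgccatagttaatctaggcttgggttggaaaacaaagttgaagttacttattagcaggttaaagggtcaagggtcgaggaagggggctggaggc
Apoa5 held TATAAA at -30 to -25 and AGGTCA at -103 to -98, counted from the start. Apom held CCAAT at -224 to -220 and at -98 to -94. Apoc2, whose sequence is not printed, held TATAAA at -40 to -35, and the windows of Apoa4, Apoe and Apoc1 held none of the 4. Over 33469 RefSeq windows of 250 bases before and 50 after a start, 14.2% held TATAAA on either strand, 37.5% held CCAAT, 16.2% held AGGTCA and 0.391% held CAAAGTCCA. The motifs do not overlap in these members. The matches are descriptions of these letters, and no other array or assay here bears on binding.

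The genes most like a member in their pattern were sought for the 3 members with the widest range over the 6 arrays when each gene is read by its brightest probe, by the mean absolute difference of values centred on each gene's mean. For Apoa4 they were Ceacam9 and Rdx, at 0.28 and 0.88 log2 units, and both of their spots lie in column 58 as well. For Apoa2 they were Sez6l2 and Or52e19, at 0.04 and 0.06. Both were lowest in corn oil replicate 2, which their choice by likeness to Apoa2 fixed in advance. For Apom they were Pfkfb3 and Commd3, at 0.02 and 0.03.

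Other genes of lipoprotein metabolism were taken from a list of 73 by role, of which 67 were on the array and 62 were tested. None passed limma's adjusted threshold, against 0.0612% of the 11434 genes tested. An unadjusted limma p under 0.05 was met by 3 of 62 with higher means, against 7.16% of all genes tested, and by 4 of 62 with lower means, against 8.11%. All phenolphthalein arrays lay above all corn oil arrays for 6 of 62, against 12.2% of all genes tested, and below them for 5 of 62, against 11.0%. The median log2 fold change was 0.04, against 0.01 for all genes tested.

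Of the other apolipoproteins and clusterin, 0 of 8 passed. Apol9a, an interferon-responsive member of the rodent L family, had log2 signals of 2.60, 2.81 and 2.47 in phenolphthalein livers and 3.44, 2.90 and 3.07 in corn oil livers, with a log2 fold change of -0.51 ± 0.17 (SE, limma adjusted p = 0.265). Apool and Apoo, which are proteins of the mitochondrial inner membrane despite their names, had log2 fold changes of 0.22 ± 0.10 and 0.18 ± 0.10 (SE).

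Of the genes that edit Apob mRNA, 0 of 3 passed. The editing enzyme Apobec1 had a log2 fold change of -0.14 ± 0.17 (SE), its cofactor A1cf 0.00 ± 0.16, and Syncrip, an RNA-binding protein that associates with the editing complex, 0.22 ± 0.08. Among 10 tested genes of particle assembly and secretion 0 passed. Sar1b and Sar1a, GTPases of the vesicles that leave the endoplasmic reticulum, had log2 fold changes of 0.27 ± 0.12 and 0.15 ± 0.07 (SE), and Tm6sf2, which promotes lipidation of secreted particles, -0.14 ± 0.08.

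Of 7 plasma lipid enzymes and inhibitors, 0 passed. Lipc, the hepatic lipase, had log2 signals of 4.57, 4.46 and 4.63 in phenolphthalein livers and 4.82, 4.72 and 4.96 in corn oil livers. The groups did not overlap, and the log2 fold change was -0.28 ± 0.10 (SE, limma adjusted p = 0.279). Pltp, the phospholipid transfer protein, had a log2 fold change of -0.57 ± 0.22 and Lpl, lipoprotein lipase, of 0.47 ± 0.30 (SE), with overlapping groups for both.

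Among 10 tested receptors and their regulators 0 passed. Mylip, a ubiquitin ligase that sends the LDL receptor to degradation, had a log2 fold change of -0.36 ± 0.16 (SE, limma adjusted p = 0.351), with overlapping groups.

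Of the 4 lipid export pumps 0 passed, though Abcg1, which loads cholesterol onto high-density particles and is abundant in macrophages, had the smallest p of the list. It had log2 signals of 1.19, 1.02 and 1.31 in phenolphthalein livers and 2.07, 1.91 and 1.83 in corn oil livers, groups that did not overlap. The log2 fold change was -0.76 ± 0.11 (SE, limma adjusted p = 0.116), beside the lower means of 8 of 8 Kupffer cell markers (median log2 fold change -0.65), whose part in it was not tested. The Abcg1 spot of phenolphthalein replicate 1 lies in an array column masked as defective in an alternative fit. With that spot left out, the log2 fold change was -0.77 ± 0.13 (SE, limma adjusted p = 0.160). Abca1, which lipidates Apoa1, had -0.17 ± 0.14 and the sterol pump Abcg5 -0.17 ± 0.18 (SE).

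Of 20 tested regulators of apolipoprotein genes 0 passed. Rxra, the partner of many nuclear receptors, had a log2 fold change of 0.29 ± 0.11, Srebf2, the activator of sterol genes, 0.21 ± 0.11, and Creb3l3, which activates Apoa4 and Apoc2 in mouse liver, 0.23 ± 0.12 (SE).

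**Figure D5:**
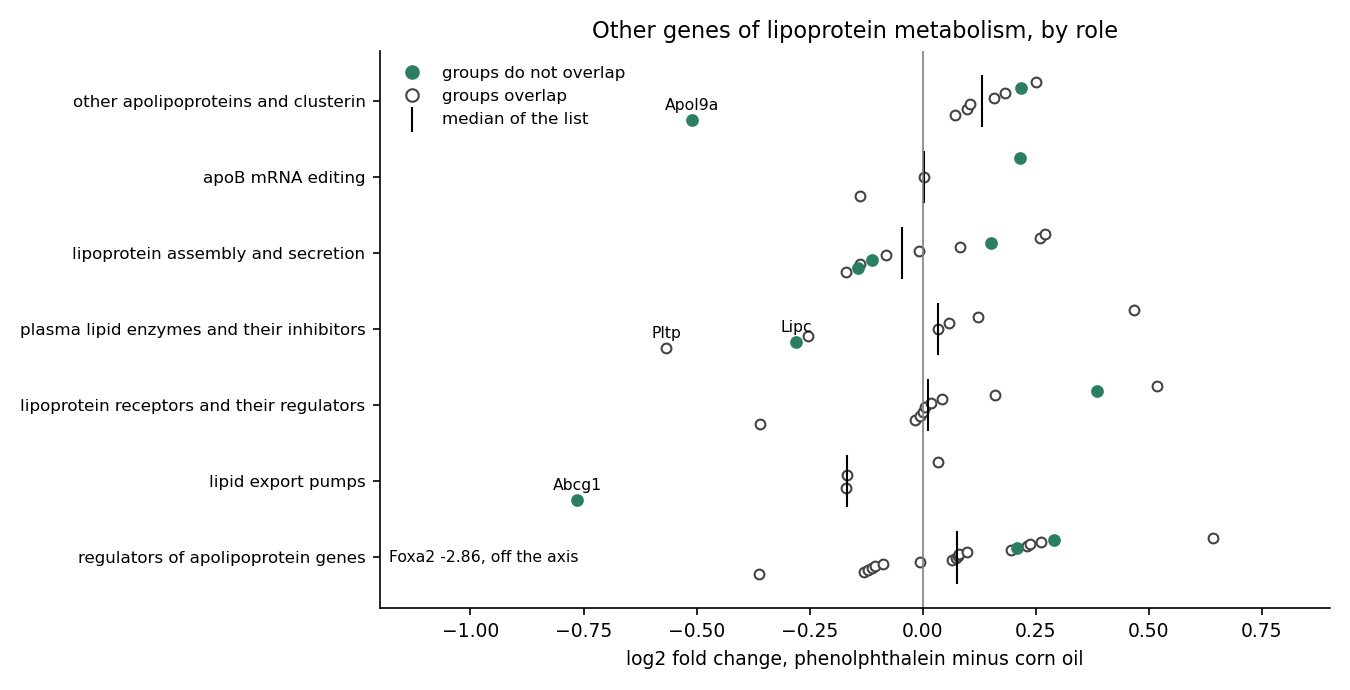
Each point is 1 of the 62 tested genes, by role, with its log2 fold change, phenolphthalein minus corn oil, on the horizontal axis. Filled points mark the 11 genes whose groups do not overlap and the bars the median of each role. Abcg1 at -0.76 is the lowest value drawn on the axis, and Foxa2, named after its values were seen, lies off it at -2.86 because its spot on phenolphthalein replicate 3 was at -7.35.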

How the data were processed

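Total liver RNA of 6 rats was hybridised to Agilent 1-colour arrays. The authors deposited scanner files with spot intensity from Agilent Feature Extraction (10.7 per the submitters' processing notes, 10.7.1.1 per the headers of the files). As those headers show, the processed intensity is background-subtracted and spatially detrended and is not normalized between arrays, per the file headers. The deposited value table, a ratio of this intensity to 1 factor per array close to its 75th percentile, has column medians of 0.0954, 0.0941 and 0.0959 for phenolphthalein replicates 1 to 3 and 0.0984, 0.101 and 0.102 for corn oil replicates 1 to 3. It is linear, not centred per gene, and runs the same way.

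Values were log2 of the processed intensity minus the array's 75th percentile, without outlier-marked spots. Probes that the software marked well above background on 3 or more arrays were tested in limma 3.58.1 (R 4.3.3) with lmFit and eBayes and Benjamini-Hochberg adjustment at 0.05. Each gene was tested by its brightest probe. Accessions were named through RefSeq's GRCr8 table, which named 27460 of 61657 probes. The test was checked on simulated data. The labels name 3 animals per group, 1 array each, whose number limits the precision.

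Members and lists were chosen with earlier results of these data known. Named genes were all members, the 3 smallest p-values of each role in the pathway list, and 2 genes most like each of the 3 members with the widest range. Not every gene this rule selects is reported. As an alternative, array columns were masked where 5% or more of the bright spots fell 2 log2 units under the other arrays (columns 55 and 58 of phenolphthalein replicate 1 and 144 of phenolphthalein replicate 3). Normexp (offset 50) ran on the median spot intensity, since the mean is not used here. The fit without spatial detrending, on median spot intensity minus local background, was added after the data were seen. Deviations of arrays with the same replicate number had correlations of -0.01, 0.02 and 0.01. Arrays with different numbers had -0.07 to 0.06. The labels name no pairing and none was used, though such correlations cannot exclude a weak one.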

Additional observations from a re-analysis of the deposited data

How the results depend on the processing

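None of the 15 apolipoprotein probes and none of the 62 pathway genes passed limma's adjusted threshold in any alternative, and the median of the members ran from 0.00 to 0.16. With the replicate number as a block, a number the samples only share, 0 probes and 0 genes were higher and 0 lower, against 18 probes and 6 genes higher and 1 of each lower without it. Genes lower numbered 0 under normexp, quantile normalization, no filter on dim probes, and an intensity trend with a robust prior, and 2 under a filter on all 6 arrays or without spatial detrending. Without the filter 0 probes were higher and 0 lower. Probes lower numbered 2 under the filter on all 6 arrays or the trend, and 3 without detrending. A median shift moved the pathway median to 0.12 and that of all genes to 0.09. Signs turned for Apoa1 (normexp -0.024, quantile -0.059, no detrending -0.013), Apoa5 (quantile -0.034), Apob A_44_P552692 (quantile -0.024), Apob A_44_P553791 (normexp -0.032, no detrending -0.021), Apoc1 (quantile -0.026), Apoc3 A_43_P11435 (median shift 0.079), Apoc3 A_44_P327799 (normexp -0.038, quantile -0.055, no detrending -0.028) and A1cf (normexp -0.0014, quantile -0.0042). Apoa4 was 0.28 with its column masked and has no value under the filter on all 6 arrays. The cause of these shifts was not tested. Leaving out 1 array at a time gave 0 to 5 probes higher and 0 to 1 lower, 0 to 6 genes higher and 0 lower, a member median of 0.00 to 0.14 and a pathway median of 0.03 to 0.06. In those fits signs turned for Apoa1 (-0.018 to 0.11), Apoa2 (-0.021 to 0.40), Apoa4 (-7.64 to 0.28), Apoa5 (-0.00040 to 0.11), Apob A_44_P552692 (-0.017 to 0.13), Apob A_44_P553791 (-0.013 to 0.18), Apoc3 A_43_P11435 (-0.082 to 0.045), Apoc3 A_44_P327799 (-0.087 to 0.059) and A1cf (-0.13 to 0.094). Groups of 3 arrays limit the intervals, and bright members reached 76.0% of the scanner's range.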
